A study of Mus musculus with 12 samples.

Results

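The MHC class II antigen presentation genes were followed here in tibialis anterior, a shin muscle of the mouse. The members were the rows of the count table whose symbol was Cd74, H2-Aa, H2-Ab1, H2-Eb1, H2-DMa, H2-DMb1, Ciita or Ctss, 8 genes of the 22607 in the table, and 8 of 8 passed the filter on low counts. RNA was sequenced in 12 libraries, 3 in each of 4 groups: Crtc2 vector after alternate day fasting (ADF Crtc2), GFP vector after alternate day fasting (ADF GFP), Crtc2 vector with feeding at will (fed Crtc2) and GFP vector with feeding at will (fed GFP). Alternate day fasting lasted 3 rounds. Every library came from C57BL/6 males of 13 weeks, and the GFP vector is described as empty. The labels do not name the kind of vector, its promoter or the share of cells that took it up. They leave unsaid whether each library is a different animal. A p-value here therefore weighs an effect against library-to-library spread, part of which may be technical.

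Class II molecules are pairs of an α and a β chain that display peptides from engulfed material to CD4+ T cells. They are made mainly by dendritic cells, macrophages and B cells, so in muscle they are usually read as a product of cells between the fibres. The new chains travel with the invariant chain, Cd74, which cathepsin S (Ctss) trims down to a small peptide, and the H2-DM pair (H2-DMa and H2-DMb1) then swaps that peptide for the one to be shown. Ciita is the coactivator that switches the family on, recruited by factors bound at the X and Y boxes of the promoters. Interferon gamma induces Ciita, and Crtc2, the vector's product, is a coactivator of the transcription factor Creb1.

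Promoter sequences are printed for the 4 members whose windows held a match to an X box, Y box, CRE or interferon-type element. The 250 bases before the gene start were taken from RefSeq (mouse build GRCm38.p6), in which 5 of 8 members were matched, namely H2-Aa, H2-Eb1, H2-DMa, H2-DMb1 and Ctss. Cd74, H2-Ab1 and Ciita are the other members. Capitals mark a motif found in the window, and each sequence reads 5′ to 3′ on the gene's own strand. H2-Aa lies at chr17:34287824-34288073 on the minus strand, H2-Eb1 at chr17:34305617-34305866 on the plus strand, H2-DMb1 at chr17:34152941-34153190 on the plus strand and Ctss at chr3:95526536-95526785 on the plus strand.
H2-Aa: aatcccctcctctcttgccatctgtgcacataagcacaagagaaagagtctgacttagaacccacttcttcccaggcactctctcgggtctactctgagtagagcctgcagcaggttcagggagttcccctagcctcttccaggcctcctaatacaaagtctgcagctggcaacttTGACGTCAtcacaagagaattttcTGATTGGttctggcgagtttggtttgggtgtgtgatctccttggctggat
H2-Eb1: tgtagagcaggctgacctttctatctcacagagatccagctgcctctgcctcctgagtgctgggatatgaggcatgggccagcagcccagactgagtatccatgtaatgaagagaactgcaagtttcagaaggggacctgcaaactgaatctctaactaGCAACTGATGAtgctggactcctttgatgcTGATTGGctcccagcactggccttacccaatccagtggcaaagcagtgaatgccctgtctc
H2-DMb1: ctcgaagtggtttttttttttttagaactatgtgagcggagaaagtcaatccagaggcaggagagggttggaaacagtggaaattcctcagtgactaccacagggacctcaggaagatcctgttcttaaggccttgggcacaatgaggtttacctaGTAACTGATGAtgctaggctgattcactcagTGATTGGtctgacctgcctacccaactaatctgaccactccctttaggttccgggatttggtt
Ctss: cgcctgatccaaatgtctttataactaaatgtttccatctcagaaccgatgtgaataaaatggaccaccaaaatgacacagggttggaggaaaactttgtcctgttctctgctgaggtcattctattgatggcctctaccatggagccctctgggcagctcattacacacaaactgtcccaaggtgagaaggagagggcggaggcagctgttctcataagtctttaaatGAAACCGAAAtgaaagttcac
The motifs searched on both strands were TGATTGG for the Y box, GNAAC, any 3 bases and TGA for the X box, TGACGTCA for the CRE, to which Creb1 binds, and GAAA, any 2 bases and GAAA for the interferon-stimulated response element. H2-Eb1 held an X box from 91 to 81 and a Y box from 61 to 55 bases upstream of its start. H2-DMb1 held the same pair from 94 to 84 and from 63 to 57 bases upstream of its RefSeq start, which lies inside the gene as GENCODE places it, since that annotation begins H2-DMb1 at 34153072. H2-Aa held a full CRE from 74 to 67 bases upstream and a Y box from 50 to 44 bases upstream. Its window did not match the X box pattern. The letters gcaacttTGA, which run into the CRE, differ from that pattern only in spacing. Ctss held the interferon-type motif from 21 to 12 bases upstream and none of the other motifs. H2-DMa has 2 RefSeq starts, and neither window held any of the 4 motifs. Both windows lie inside the gene as GENCODE places it, which begins H2-DMa at 34119541. The bases before that start were not searched, so these windows do not show whether motifs stand there. Among 32851 promoter windows of the same length, the Y box was found in 7.23%, the X box in 2.66%, the CRE in 1.55% and the interferon-type motif in 2.98%. A match describes letters, not a bound site.

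**Figure D1:**
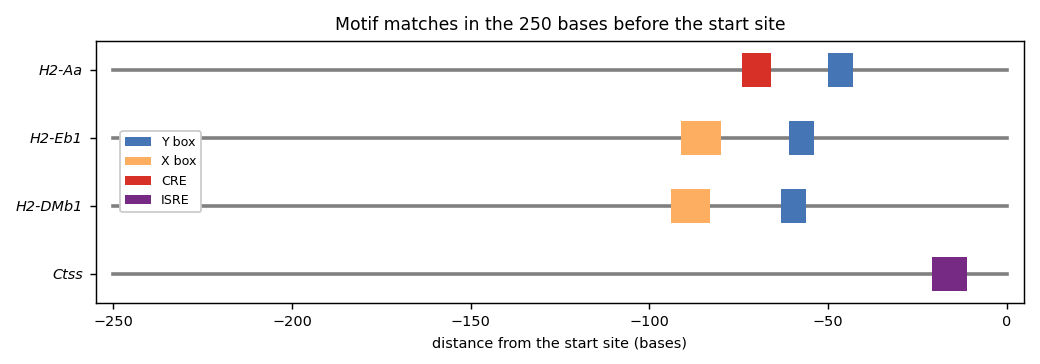
Positions of the 4 motifs in the 250 bases before the start of the matched genes. The horizontal axis gives bases relative to the start, each row is a gene start, and coloured blocks are motif matches. Rows are drawn for genes with a match. The Y boxes of H2-Eb1, H2-DMb1 and H2-Aa lie between 63 and 44 bases upstream, and the motif of Ctss between 21 and 12 bases upstream.

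Depth was alike across the libraries, with 24232450 to 34610417 counts each, and a floor of 3 counts stood for 0.0813 to 0.13 CPM, the counts scaled to library size. Skeletal muscle fibre genes, such as Acta1 and Ckm, summed to 124082 to 220106 CPM over 8 genes, so the libraries carried the markers of the labelled tissue. The Crtc2 transcript itself was at 42.8, 40.5 and 31.4 CPM in ADF Crtc2 libraries, against 19.7, 16.1 and 23.6 CPM in ADF GFP libraries. It was at 64.8, 58.2 and 77.9 CPM in fed Crtc2 libraries, against 29.2, 17.3 and 24.0 CPM in fed GFP libraries. Every Crtc2 library lay above every GFP library of its diet, and over both diets Crtc2 rose with its vector by 1.23 ± 0.20 on the log2 scale (standard error, as for all log2 values that follow, with an adjusted p of 0.00578). Adjusted p-values are from edgeR's quasi-likelihood test with Benjamini-Hochberg adjustment over the 16007 genes tested. Of the 6 CREB and CRTC family genes listed, which include Creb1, 0 were called in ADF Crtc2 against ADF GFP muscle. In that comparison 116 of all tested genes were called. For Crtc2 against GFP over both diets, Crtc2 was the 1 called, beside 79 of all tested genes.

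The 8 class II genes together took 0.0252 to 0.216% of a library's counts. Their summed level was 282 to 396 CPM in ADF Crtc2 libraries, 754 to 2025 CPM in ADF GFP libraries, 283, 364 and 874 CPM in fed Crtc2 libraries, and 691 to 1061 CPM in fed GFP libraries. The ADF Crtc2 group was the lowest on average and the most even, while ADF GFP spread widely. Fed Crtc2 replicate 3 stood apart from the other libraries of its group, and its B cell markers (140 CPM, against 18.1 and 22.2 CPM in replicates 1 and 2) and T cell markers (58.2 CPM, against 12.1 and 10.4 CPM) stood apart with it. Whether an excess of such cells in that library set its class II level was not tested. In these whole-muscle samples, fewer cells of a type and less RNA per cell cannot be told apart.

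**Figure D2:**
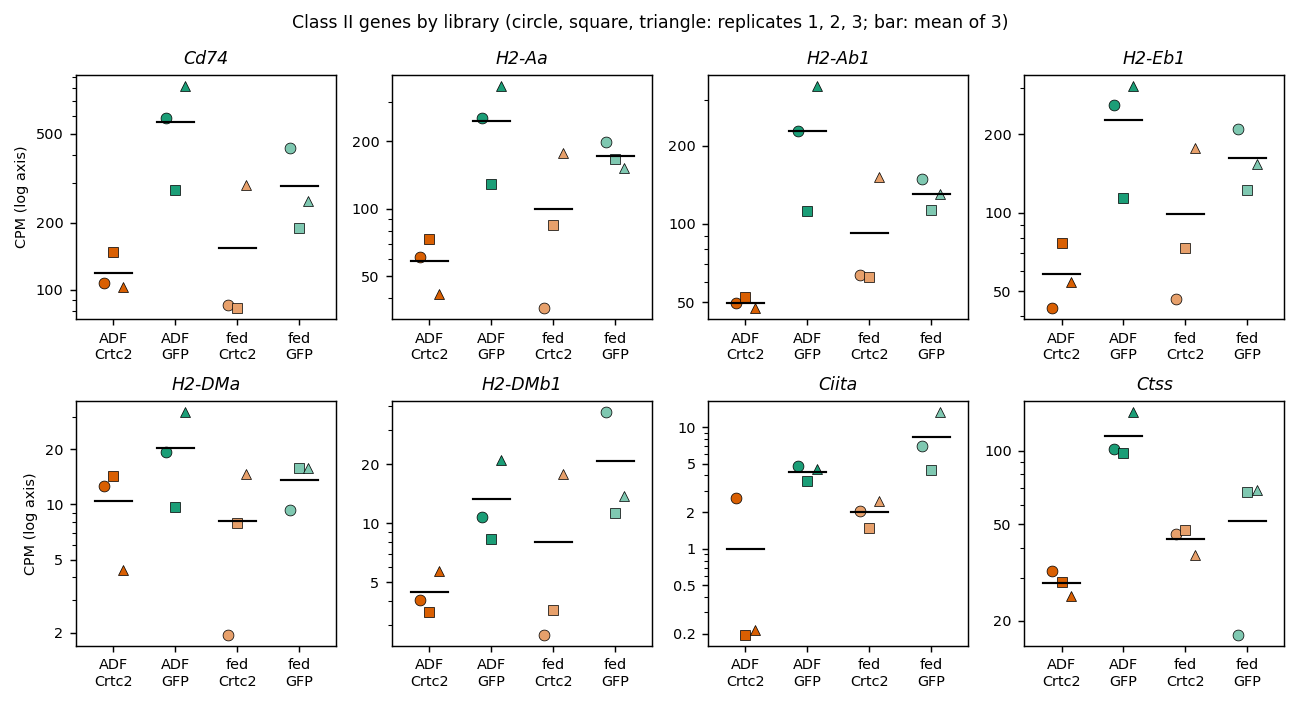
CPM of each of the 8 genes in each of the 12 libraries, on a log axis, with ADF Crtc2, ADF GFP, fed Crtc2 and fed GFP from left to right in every panel. Each point is a library and its shape gives the replicate number. For Cd74, the ADF Crtc2 points lie between 103 and 147 CPM and the ADF GFP points between 279.8 and 822 CPM.

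The question of what Crtc2 does to fasted muscle is put by ADF Crtc2 against ADF GFP. Class II genes were lower with Crtc2: H2-Ab1 and Ctss fell 4.55-fold and 3.99-fold and passed the test, and the log2 fold change was below 0 in 8 of 8 members. Their median log2 fold change was -2.03, beside -0.01 over all genes tested. In 7 of 8 members the 3 ADF Crtc2 libraries all lay below the 3 ADF GFP libraries, where 11.8% of all tested genes did so. The test called 2 of 8 members lower, where 0.65% of all tested genes were called lower. That count moved with single libraries: it was 0 without ADF Crtc2 replicate 1, 2 or 3, 1 without ADF GFP replicate 1 or 3, 4 without fed Crtc2 replicate 1 and 5 without fed Crtc2 replicate 3, which enters through the shared estimate of spread. DESeq2 called the same 5 members, Cd74, H2-Aa, H2-Ab1, H2-Eb1 and Ctss, and 556 of all genes, where edgeR called 116. The counts of all genes called without single libraries are not given here.

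Among the chains, H2-Ab1, the β chain of the A molecule (chr17:34257689-34269419, plus strand), had 49.8, 52.4 and 47.4 CPM in ADF Crtc2 libraries, against 228, 112 and 340.1 CPM in ADF GFP libraries. The Crtc2 values were nearly level and all lay under the lowest GFP value. H2-Ab1 averaged 49.9 ± 2.51 CPM in ADF Crtc2 muscle and 227 ± 114 CPM in ADF GFP muscle (SD, n = 3 each), a log2 fold change of -2.19 ± 0.38 with an adjusted p of 0.0156. This call was lost without any of 4 libraries. Without ADF Crtc2 replicate 1, 2 or 3 the adjusted p was 0.132, 0.0692 and 0.101, and without ADF GFP replicate 1 it was 0.0515. The log2 fold change hardly moved without ADF Crtc2 replicate 1, 2 or 3, at -2.19, -2.22 and -2.15. Left-out values of the log2 fold change stayed between -2.51 and -1.77.

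H2-Aa, the α chain that pairs with it (chr17:34282744-34287823, minus strand), had 60.8, 73.0 and 41.7 CPM in ADF Crtc2 libraries, against 253, 129 and 355 CPM in ADF GFP libraries. The groups did not overlap, and ADF GFP replicate 2 was the lowest GFP library, as it was for H2-Ab1. The log2 fold change was -2.07 ± 0.53, and the adjusted p of 0.13 missed the threshold of 0.05. H2-Eb1, the β chain of the E molecule (chr17:34305867-34316674, plus strand), had 43.0, 76.7 and 54.3 CPM in ADF Crtc2 libraries, against 259, 114 and 307 CPM in ADF GFP libraries. These groups did not overlap either, with a log2 fold change of -1.96 ± 0.50 and an adjusted p of 0.121. C57BL/6 mice are known to lack a working E α chain, so H2-Eb1 is here a transcript without its usual partner.

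Cd74, the invariant chain (chr18:60803848-60812652, plus strand, with the microRNA gene Mir5107 inside it), was the most abundant member per length of transcript. It had 108, 147 and 103 CPM in ADF Crtc2 libraries, against 585, 279.8 and 822 CPM in ADF GFP libraries. Even the highest Crtc2 library stayed under the lowest GFP library, and the groups did not overlap. Cd74 averaged 119 ± 24.4 CPM in ADF Crtc2 muscle and 562 ± 272 CPM in ADF GFP muscle (SD, n = 3 each), 4.72-fold lower. Its log2 fold change of -2.24 ± 0.60 had an adjusted p of 0.184, and the ADF GFP libraries differed widely among themselves.

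Ctss, cathepsin S (chr3:95526786-95556403, plus strand, overlapping the pseudogene Hmgb1-ps5), had 32.2, 28.8 and 25.2 CPM in ADF Crtc2 libraries, against 102, 98.0 and 144 CPM in ADF GFP libraries. The lowest GFP library was above the highest Crtc2 library by a wide gap, and the libraries of each group were close. Ctss averaged 28.7 ± 3.47 CPM in ADF Crtc2 muscle and 115 ± 25.7 CPM in ADF GFP muscle (SD, n = 3 each), a log2 fold change of -2.0 ± 0.36 with an adjusted p of 0.0123. Without ADF Crtc2 replicate 1, 2 or 3 the adjusted p was 0.0883, 0.0586 and 0.0811, and without ADF GFP replicate 3 it was 0.0672, with log2 fold changes between -2.10 and -1.80 throughout.

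The loading factors were far less abundant. H2-DMb1 (chr17:34153072-34160230, plus strand) had 4.06, 3.51 and 5.72 CPM in ADF Crtc2 libraries, against 10.8, 8.27 and 21 CPM in ADF GFP libraries, without overlap (-1.59 ± 0.66, adjusted p = 0.352). Its reads are hard to tell from those of the near-identical gene H2-DMb2, so its level is uncertain. H2-DMa (chr17:34119541-34139101, plus strand) had 12.7, 14.3 and 4.41 CPM in ADF Crtc2 libraries, against 19.4, 9.62 and 31.9 CPM in ADF GFP libraries. It was the only member whose groups overlapped in this comparison (-0.96 ± 0.61, adjusted p = 0.592). Brd2 and Gm20493 overlap H2-DMa on the other strand, and the strand setting of the counting is not given in the sources used here, so their reads may be mixed.

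Ciita, the coactivator (chr16:10480059-10528418, plus strand, overlapping Dexi on the other strand), was scarce. It had 2.59, 0.197 and 0.213 CPM in ADF Crtc2 libraries, which are 60, 5 and 6 counts, against 4.80, 3.58 and 4.50 CPM in ADF GFP libraries, which are 112, 120 and 166 counts. All GFP libraries were above all Crtc2 libraries, with replicate 1 of ADF Crtc2 nearest to them. The log2 fold change was -2.10 ± 1.14 with an adjusted p of 0.493, and at such counts the spread between libraries was the widest of the 8 members.

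**Figure D3:**
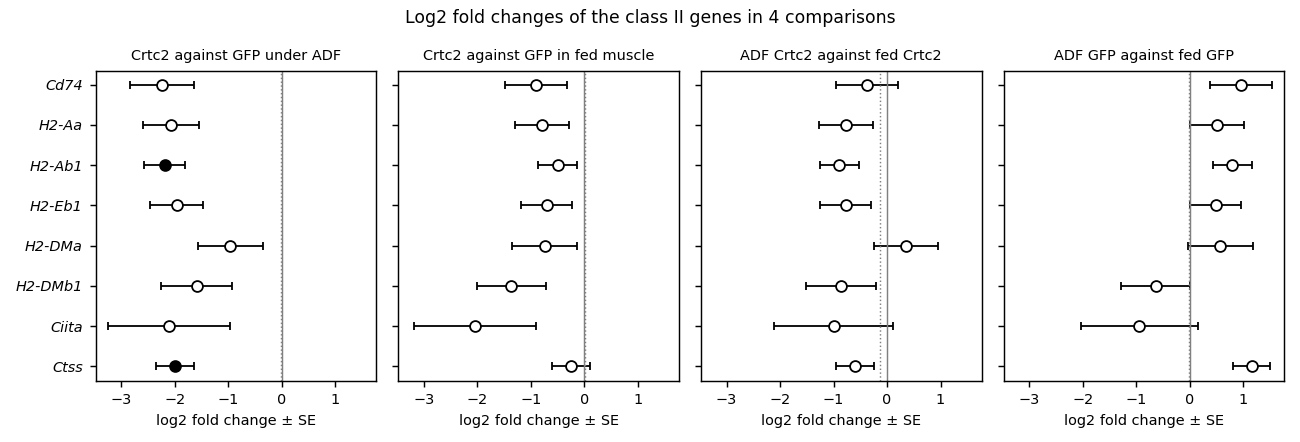
Log2 fold change of each of the 8 genes in 4 comparisons, with bars of 1 standard error. Filled points have an adjusted p under 0.05 and the dotted line is the median of all tested genes. Under ADF, H2-Ab1 (-2.19) and Ctss (-2.0) are filled, and 8 of 8 points lie below 0.

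In fed muscle the same vector comparison called 0 of 8 members, and 0% of all tested genes, with edgeR. DESeq2 also called 0 of the 8 members, and 64 of all genes. At an unadjusted p under 0.05 edgeR had 1 of 8 members, H2-DMb1, and 5.44% of all genes. The log2 fold changes of the members were again below 0 in 8 of 8, with a median of -0.77 beside 0.01 over all genes. Cd74 had 85.3, 82.6 and 296 CPM in fed Crtc2 libraries, against 434, 189 and 250.1 CPM in fed GFP libraries. Replicates 1 and 2 with Crtc2 were below all GFP libraries and replicate 3 was among them. The log2 fold change of Cd74 was -0.91 ± 0.58 (adjusted p = 0.975), and -1.79 without fed Crtc2 replicate 3 (adjusted p = 0.428). H2-Ab1 had 63.4, 62.7 and 151 CPM in fed Crtc2 libraries, against 149, 113 and 131 CPM in fed GFP libraries, with a log2 fold change of -0.50 ± 0.37 (adjusted p = 1) and -1.05 without that library (adjusted p = 0.483).

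H2-Aa had 36.0, 84.7 and 178 CPM in fed Crtc2 libraries, against 198, 167 and 151 CPM in fed GFP libraries. H2-Eb1 had 46.8, 73.5 and 177 CPM in fed Crtc2 libraries, against 209, 122 and 154 CPM in fed GFP libraries. Both chains thus showed the split of Cd74, with fed Crtc2 replicate 3 at GFP levels. The log2 fold change of H2-Aa was -0.79 ± 0.51 (adjusted p = 0.975), and -1.51 without that library (adjusted p = 0.545). For H2-Eb1 it was -0.71 ± 0.48 (adjusted p = 0.994), and -1.43 without that library (adjusted p = 0.472). Ctss did not: it had 45.4, 47.3 and 37.4 CPM in fed Crtc2 libraries, against 17.6, 67.9 and 68.8 CPM in fed GFP libraries, and the low value there was a GFP library, replicate 1. Its log2 fold change was -0.25 ± 0.35 (adjusted p = 1).

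Of the scarcer genes, Ciita had 2.03, 1.48 and 2.48 CPM in fed Crtc2 libraries, against 7.04, 4.45 and 13.3 CPM in fed GFP libraries. It was the 1 member of 8 without overlap, where 3.83% of all tested genes lay lower without overlap (-2.05 ± 1.13, adjusted p = 0.882). H2-DMb1 had 2.70, 3.58 and 17.9 CPM in fed Crtc2 libraries, against 37.1, 11.4 and 13.8 CPM in fed GFP libraries (-1.36 ± 0.65, adjusted p = 0.877). H2-DMa had 1.95, 7.88 and 14.6 CPM in fed Crtc2 libraries, against 9.32, 15.8 and 15.8 CPM in fed GFP libraries (-0.74 ± 0.61, adjusted p = 1). Both overlapped through fed Crtc2 replicate 3 alone. Without it the log2 fold change was -2.72 for H2-DMb1 (adjusted p = 0.327) and -1.47 for H2-DMa (adjusted p = 0.773).

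Over both diets, the mean effect of Crtc2 against GFP was called lower for 1 of 8 members, H2-Ab1 (-1.34 ± 0.26, adjusted p = 0.0357), where 0.469% of all tested genes were called lower. Ctss was at an adjusted p of 0.0501 (-1.12 ± 0.25), and 7 of 8 members had an unadjusted p under 0.05, beside 10.1% of all genes. Ciita was the member in which all 6 Crtc2 libraries lay below all 6 GFP libraries, as 0.337% of all tested genes did, yet its adjusted p was 0.349 (-2.07 ± 0.80). The H2-Ab1 call was lost without any of 9 libraries, that is each one other than ADF GFP replicates 2 and 3 and fed Crtc2 replicate 3, with adjusted p-values up to 0.138. Without fed Crtc2 replicate 3, 5 of 8 members were called: Cd74, H2-Aa, H2-Ab1, H2-Eb1 and H2-DMb1. The share of all genes called without that library is not given here, so this count has no background beside it.

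An interaction term set the log2 effect of Crtc2 in ADF muscle against its effect with feeding, and it called 0 of 8 members and 0% of all tested genes with edgeR. DESeq2 called 0 members and 111 genes, and 2 of 8 members had an unadjusted p under 0.05, beside 7.75% of all genes. Those 2 were Ctss at -1.75 ± 0.50 and H2-Ab1 at -1.69 ± 0.52, both with an adjusted p of 0.516. Cd74 was at -1.33 ± 0.82 (adjusted p = 0.751). Without fed Crtc2 replicate 3 these values were -1.85 for Ctss, -1.14 for H2-Ab1 and -0.45 for Cd74, with adjusted p-values of 0.438, 0.513 and 0.931. Those of H2-DMa, H2-DMb1 and Ciita then stood above 0, at 0.51, 1.13 and 0.13, with adjusted p-values of 0.978, 0.782 and 1. Without the filter on low counts, edgeR called 5 of 8 members, Cd74, H2-Aa, H2-Ab1, H2-Eb1 and Ctss, and 67 of all genes. Each of these 5 members stayed uncalled in the other 18 of 19 alternatives.

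The diets were compared within each vector. ADF Crtc2 against fed Crtc2 called 0 of 8 members, where 11% of all tested genes were called in either direction and 4.68% lower, and DESeq2 called 0 members too. H2-Ab1 alone had an unadjusted p under 0.05, beside 24.4% of all genes. H2-Ab1 at 49.8, 52.4 and 47.4 CPM in ADF Crtc2 libraries lay below its 63.4, 62.7 and 151 CPM in fed Crtc2 libraries (-0.89 ± 0.37, adjusted p = 0.155). Ctss at 32.2, 28.8 and 25.2 CPM in ADF Crtc2 libraries lay below its 45.4, 47.3 and 37.4 CPM in fed Crtc2 libraries (-0.59 ± 0.35, adjusted p = 0.321). These were the 2 members of 8 without overlap, where 15.6% of all tested genes lay lower without overlap. The other log2 fold changes ran from -1.0 for Ciita to 0.35 for H2-DMa. Without fed Crtc2 replicate 3, the value for H2-Ab1 was -0.34, those of H2-Aa and H2-Eb1 were -0.048 and -0.053 in place of -0.77 each, and that of H2-DMa was 1.08. Those of Cd74 and H2-DMb1 turned from below 0 to 0.51 and 0.50. Without ADF GFP replicate 2, H2-Ab1 was called.

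ADF GFP against fed GFP also called 0 of 8 members, where 7.12% of all tested genes were called in either direction. DESeq2 called 1 member, Ctss, with an adjusted p of 0.0352, and 1635 of all genes. With edgeR 2 of 8 members, Ctss and H2-Ab1, had an unadjusted p under 0.05, beside 19.8% of all genes. Ctss at 102, 98.0 and 144 CPM in ADF GFP libraries lay above its 17.6, 67.9 and 68.8 CPM in fed GFP libraries (1.16 ± 0.35, edgeR adjusted p = 0.0546), and it was called without fed GFP replicate 3. Without 1 library each, its log2 fold change ran from 0.75 to 1.42, with adjusted p up to 0.21. Ctss was the 1 member of 8 that lay higher without overlap, where 14.3% of all tested genes did. For H2-Ab1 the log2 fold change was 0.79 ± 0.37 (adjusted p = 0.249, and called without ADF GFP replicate 2), for Cd74 0.95 ± 0.58 (0.43), for H2-Aa 0.51 ± 0.51 (0.682) and for H2-Eb1 0.48 ± 0.48 (0.683). Without 1 library each, that of H2-Ab1 ran from 0.38 to 1.12, with adjusted p up to 0.665. Ciita, at -0.94 ± 1.10, and H2-DMb1, at -0.64 ± 0.64, were on the other side of 0, with adjusted p-values of 0.738 and 0.682. The ADF GFP libraries stand in this comparison and in that of the vectors under ADF, so both sets of values share them.

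The mean effect of diet over both vectors called 0 of 8 members with edgeR and with DESeq2, where 18% of all tested genes were called, and 0 of 8 had an unadjusted p under 0.05. The median of the members was -0.09, the same as that of all genes. For Cd74 this effect was 0.29 ± 0.41, and 0.73 without fed Crtc2 replicate 3, with adjusted p-values of 0.708 and 0.109. In 8 of 8 members both Crtc2 groups had lower means than both GFP groups. For Cd74, the 3 chains and Ctss the order of the means, high to low, ran from ADF GFP through fed GFP and fed Crtc2 to ADF Crtc2. For Ciita and H2-DMb1 it ran from fed GFP through ADF GFP and fed Crtc2 to ADF Crtc2, and for H2-DMa from ADF GFP through fed GFP and ADF Crtc2 to fed Crtc2. Neighbours in these orders overlapped, apart from fed Crtc2 and ADF Crtc2 for H2-Ab1 and Ctss, ADF GFP and fed GFP for Ctss, and ADF GFP and fed Crtc2 for Ciita.

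Per kilobase of exon, the levels of the members differed by orders of magnitude within a muscle. In ADF GFP muscle Cd74 stood at 335 ± 162 CPM per kilobase, H2-Eb1 at 116 ± 51.7, H2-Ab1 at 88.3 ± 44.4, Ctss at 84.4 ± 18.9 and H2-Aa at 64.7 ± 29.7 (SD, n = 3). The DM genes followed at 7.94 ± 4.0 for H2-DMb1 and 5.88 ± 3.23 for H2-DMa, and Ciita at 0.45 ± 0.0663. Over the 3 libraries H2-Eb1 ran from 58.5 to 158, H2-Ab1 from 43.7 to 132, H2-Aa from 34.0 to 93.4 and Ctss from 72.1 to 106 CPM per kilobase, so these ranges overlapped. Within each of the 3 libraries H2-Eb1 was above H2-Ab1, and H2-Ab1 above H2-Aa. Fed GFP muscle had Cd74 at 173 ± 75.8 CPM per kilobase and Ciita at 0.867 ± 0.477.

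The ratio of Cd74 counts to the summed counts of the chains H2-Aa, H2-Ab1 and H2-Eb1 was 0.700 to 0.728 in ADF Crtc2 libraries and 0.788 to 0.820 in ADF GFP libraries. It was 0.374 to 0.584 in fed Crtc2 libraries and 0.469 to 0.780 in fed GFP libraries. The invariant chain thus kept within a narrow range of the chains under ADF and a wider one with feeding, while its own level differed several-fold. H2-Aa counts were 0.879 to 1.39 times those of H2-Ab1 in ADF Crtc2 libraries and 1.04 to 1.15 times in ADF GFP libraries.

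Across the 12 libraries, log2 CPM of H2-Aa correlated with the mean of the other members at 0.972, H2-Ab1 at 0.959, H2-Eb1 at 0.942 and Cd74 at 0.922. Below them came H2-DMb1 at 0.776, H2-DMa at 0.705, Ciita at 0.642 and Ctss at 0.514. The chains and Cd74 thus moved together most closely, and Ctss followed the set least. The 12 points share their libraries, groups and depth, and the correlations are descriptions.

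Genes that work beside the members were read from a list of 20, of which 18 were in the table and 16 were tested. Under ADF, Crtc2 against GFP, 1 of the 16 was called and it was lower: Lgmn, the lysosomal protease legumain that also cuts the invariant chain, had 63.7, 72.0 and 67.5 CPM in ADF Crtc2 libraries, against 120.3, 123 and 148 CPM in ADF GFP libraries. The groups were well apart (-0.94 ± 0.21, adjusted p = 0.0379), although the call was lost without any of the 6 ADF libraries, with adjusted p up to 0.223. The median of the list was -0.95, and 8 of 16 lay lower without overlap, where 11.8% of all tested genes did and 0.65% were called lower. Ifi30, the thiol reductase that opens antigens for loading, was at 9.11 ± 4.71 CPM in ADF Crtc2 muscle and 26.5 ± 6.06 CPM in ADF GFP muscle (SD, n = 3 each; -1.54 ± 0.43, adjusted p = 0.108). H2-DMb2 and H2-Oa, a further DM β chain and the α chain of the DM antagonist H2-O, were at 0 in all ADF Crtc2 libraries and reached 2.58 and 0.836 CPM in ADF GFP libraries. H2-Oa was also at 0 in 2 of 3 fed GFP and 2 of 3 fed Crtc2 libraries. H2-Ob, also on the list, overlapped, with 1.42 CPM in ADF Crtc2 replicate 2 and 0 in ADF GFP replicate 1.

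The other cathepsins of the list differed in size of change. Ctsz was at 41.2 ± 9.91 CPM in ADF Crtc2 muscle and 80.2 ± 11.8 CPM in ADF GFP muscle (SD, n = 3 each), without overlap (-0.96 ± 0.24, adjusted p = 0.0742). Ctsl ran from 126 to 166 CPM in ADF Crtc2 libraries and from 194 to 211 CPM in ADF GFP libraries, also without overlap (-0.49 ± 0.17, adjusted p = 0.261). Ctsb was at -0.18 ± 0.17 (adjusted p = 0.819) and Ctsd at 0.03 ± 0.20 (adjusted p = 1) in ADF Crtc2 against ADF GFP muscle. Rfx5, a subunit of the X box factor, was at 0.98 ± 0.60 there (adjusted p = 0.571). It fell in ADF GFP against fed GFP muscle (-2.25 ± 0.62, adjusted p = 0.0276), and Lgmn rose there (0.79 ± 0.21, adjusted p = 0.0233). That was 1 of 16 lower and 1 of 16 higher, where 7.12% of all tested genes were called in either direction. Each of these calls was lost without any of 4 libraries: ADF GFP replicates 1 and 3 and fed GFP replicates 1 and 3 for Rfx5, and ADF GFP replicates 2 and 3 and fed GFP replicates 1 and 3 for Lgmn. In ADF Crtc2 against fed Crtc2 muscle, Ctsz (-1.0 ± 0.24, adjusted p = 0.00901) and Ifi30 (-1.47 ± 0.43, adjusted p = 0.0292) fell, 2 of 16, where 4.68% of all tested genes were called lower and 11% in either direction. The Ctsz call was lost without ADF Crtc2 replicate 1 or 3, and the Ifi30 call without these or fed Crtc2 replicate 3.

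Interferon gamma signalling stands upstream of Ciita, and 11 of its 11 listed genes were tested. Under ADF, Crtc2 against GFP, 1 of 11 was called: Gbp2, an interferon-induced GTPase, had 9.20, 14.7 and 11.4 CPM in ADF Crtc2 libraries, against 60.4, 21.8 and 55.9 CPM in ADF GFP libraries. All Crtc2 libraries were below all GFP libraries (-1.97 ± 0.36, adjusted p = 0.0112), and the call was lost without ADF GFP replicate 1 or 3 or ADF Crtc2 replicate 1. Of all tested genes, 11.8% lay lower without overlap and 0.65% were called lower. The list had a median of -1.27, with 6 of 11 genes lower and 2 of 11 higher without overlap. The 2 higher were Ifngr2 (0.45 ± 0.22, adjusted p = 0.454) and the kinase gene Jak2 (0.48 ± 0.25, adjusted p = 0.474). Nlrc5 was at -1.91 ± 0.49 (adjusted p = 0.0753) and Irf1 at -1.70 ± 0.55 (adjusted p = 0.233). Ifng itself was at 0 in all ADF Crtc2 libraries, against 3.51, 0.657 and 0.813 CPM in ADF GFP libraries, and did not pass (adjusted p = 0.331). In ADF Crtc2 against fed Crtc2 muscle, Nlrc5, Socs1 and Irf1 fell and the receptor chain Ifngr2 rose. Of all tested genes, 4.68% were called lower there and 11% in either direction. Nlrc5, the class I counterpart of Ciita, had a log2 fold change of -3.36 ± 0.51 there (adjusted p = 0.00013), and it also fell in ADF GFP against fed GFP muscle (-2.30 ± 0.48, adjusted p = 0.00449). Irf1 lost its call without ADF Crtc2 replicate 1, with an adjusted p of 0.0533.

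Class I presentation genes, which any cell can use, were lower in the same comparison of the vectors under ADF. The test called 4 of 9 lower, B2m, H2-D1, H2-K1 and Tapbp, where 0.65% of all tested genes were called lower. B2m, the light chain of class I, had 133, 169.8 and 147 CPM in ADF Crtc2 libraries, against 534, 463.5 and 654 CPM in ADF GFP libraries (-1.88 ± 0.20, adjusted p = 0.000122). The B2m call held without each library in turn, while those of H2-K1, Tapbp and H2-D1 were each lost without ADF GFP replicate 1 or 3 or ADF Crtc2 replicate 1 or 3, and that of H2-D1 also without ADF Crtc2 replicate 2 or fed Crtc2 replicate 2.

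Markers of cells that carry class II moved with the members under ADF, and their part in the result was not tested. Of 14 macrophage markers, 4 fell in ADF Crtc2 against ADF GFP muscle and 0 rose: Csf1r (-2.0 ± 0.33, adjusted p = 0.00646), C1qc (-1.63 ± 0.30, 0.0113), Lyz2 (-1.06 ± 0.21, 0.0153) and Cd68 (-2.0 ± 0.40, 0.0156). The Csf1r call held without each library in turn, while the others were lost without ADF GFP replicate 3 or ADF Crtc2 replicate 1. The Lyz2 call was also lost without ADF Crtc2 replicate 3, and the Cd68 call without ADF Crtc2 replicate 2. The list had a median of -1.87 and 10 of 14 markers lay lower without overlap, where 11.8% of all tested genes did and 0.65% were called lower. The scavenger receptor gene Cd163 lay higher without overlap, at 2.41 to 4.75 CPM in ADF Crtc2 libraries and 0.771 to 1.85 CPM in ADF GFP libraries (1.52 ± 1.38, adjusted p = 0.811). The macrophage sum was 193 to 285 CPM in ADF Crtc2 libraries, 539 to 864 CPM in ADF GFP libraries, 235 to 353 CPM in fed Crtc2 libraries and 403 to 490 CPM in fed GFP libraries. Csf1r, the growth factor receptor of macrophages, had 8.51, 17.3 and 13.3 CPM in ADF Crtc2 libraries, against 57.8, 42.3 and 56.2 CPM in ADF GFP libraries.

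Dendritic cell markers summed to 3.11 to 8.85 CPM in ADF Crtc2 libraries, 27.4 to 44.5 CPM in ADF GFP libraries, 17.0 to 35.5 CPM in fed Crtc2 libraries and 34.6 to 59.6 CPM in fed GFP libraries. Under ADF 0 of 10 were called between the vectors, and 3 lay lower without overlap, where 11.8% of all tested genes did. The median of the list was -2.12, and 4 to 7 of 10 were at 0 in an ADF Crtc2 library. B cell markers summed to 29.7 to 55.5 CPM in ADF Crtc2 libraries, 52.9 to 199.7 CPM in ADF GFP libraries, 18.1 to 140 CPM in fed Crtc2 libraries and 153 to 188 CPM in fed GFP libraries. Most of that sum was Ighm, the heavy chain of IgM, at 28.5 to 53.7 CPM in ADF Crtc2 libraries, 46.9 to 169 CPM in ADF GFP libraries, 12.4 to 132 CPM in fed Crtc2 libraries and 147 to 162 CPM in fed GFP libraries, so values of the B cell sum are mainly values of that gene. The defining B cell genes Cd79a, Cd79b, Ms4a1 and Pax5 were at 0 in all ADF Crtc2 libraries. Of the 6 tested, 1 was called lower, Cd79b (adjusted p = 0.0483), where 0.65% of all tested genes were. That call was lost without any of 9 libraries, with adjusted p up to 0.339.

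T cell markers summed to 1.94 to 4.74 CPM in ADF Crtc2 libraries, 16.9 to 61.7 CPM in ADF GFP libraries, 10.4 to 58.2 CPM in fed Crtc2 libraries and 24.6 to 77.6 CPM in fed GFP libraries, with Cd3g called lower under ADF (1 of 7, adjusted p = 0.0108, and 0.0513 without ADF Crtc2 replicate 1). Monocyte and neutrophil markers had 1 of 6 called lower, Ly6c2 (adjusted p = 0.0393), a call lost without any of 9 libraries, and summed to 3.63 to 14.4 CPM in ADF Crtc2 libraries, 18.1 to 89.9 CPM in ADF GFP libraries, 20.5 to 27.9 CPM in fed Crtc2 libraries and 54.5 to 58.1 CPM in fed GFP libraries. The pan-leukocyte genes Laptm5 (-2.46 ± 0.37, adjusted p = 0.005) and Coro1a (-2.28 ± 0.41, adjusted p = 0.0109) fell, 2 of 3, and Coro1a missed the threshold without ADF GFP replicate 3 or ADF Crtc2 replicate 1. Beside the counts of these lists, 0.65% of all tested genes were called lower in ADF Crtc2 against ADF GFP muscle. The 3 pan-leukocyte genes summed to 22.3 to 34.2 CPM in ADF Crtc2 libraries, 84.8 to 158 CPM in ADF GFP libraries, 49.3 to 95.5 CPM in fed Crtc2 libraries and 81.3 to 135 CPM in fed GFP libraries. Of 5 endothelial and 8 muscle fibre markers, 0 and 0 were called in this comparison, and the endothelial sum was 189 to 244 CPM in ADF Crtc2 libraries and 248 to 390.2 CPM in ADF GFP libraries.

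**Figure D4:**
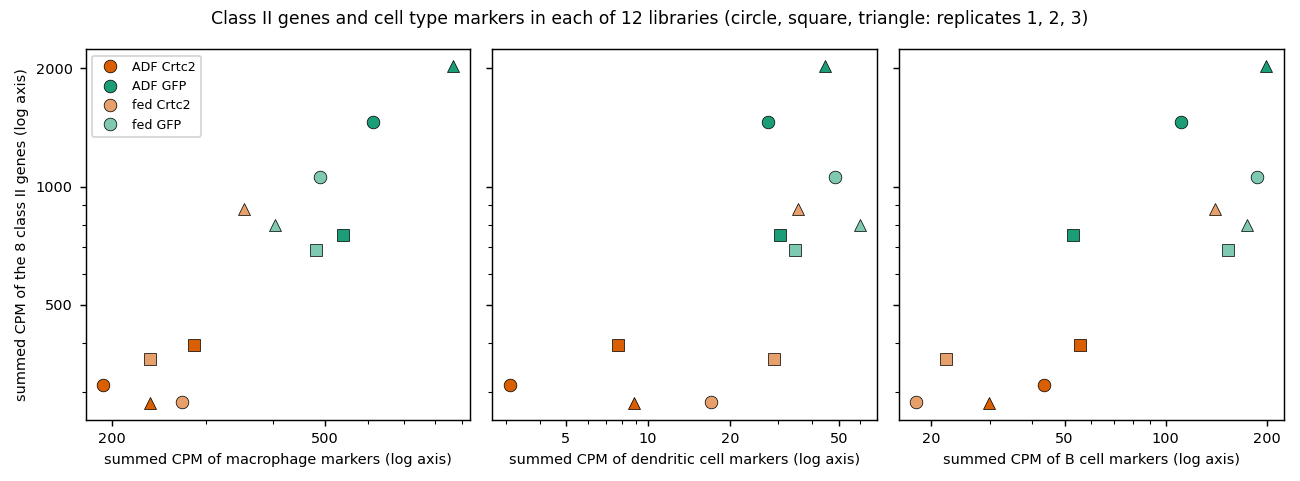
Summed CPM of the 8 class II genes against summed CPM of macrophage, dendritic cell and B cell markers in each of the 12 libraries, on log axes. Colours give the group and shapes the replicate. The ADF Crtc2 libraries lie at the lower left of the macrophage and dendritic cell panels (macrophage sum 193 to 285 CPM), and the ADF GFP libraries lie to their right (539 to 864 CPM).

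Over the 12 libraries the mean standardised log2 CPM of the members correlated with log2 of the summed macrophage markers at 0.910 and with that of the B cell markers at 0.873. The value was 0.863 for pan-leukocyte genes, 0.832 for T cell, 0.756 for monocyte and neutrophil, 0.721 for dendritic cell and 0.228 for endothelial markers. Cd74 divided by the macrophage sum was 0.437 to 0.558 in ADF Crtc2 libraries and 0.519 to 0.953 in ADF GFP libraries, so these ranges overlapped where Cd74 itself did not. The overlap came from ADF GFP replicate 2 at 0.519, and the group medians were 0.516 in ADF Crtc2 and 0.950 in ADF GFP libraries. With feeding the ratio was 0.315 to 0.837 in Crtc2 libraries and 0.393 to 0.886 in GFP libraries. Divided by the pan-leukocyte sum, Cd74 was 3.01 to 6.59 in ADF Crtc2 libraries and 3.30 to 5.19 in ADF GFP libraries, and divided by the dendritic cell sum it was 11.6 to 34.6 in ADF Crtc2 libraries and 9.22 to 21.3 in ADF GFP libraries, both with overlap. Divided by the B cell sum, which is mostly Ighm, Cd74 was 2.47 to 3.46 in ADF Crtc2 libraries and 4.11 to 5.29 in ADF GFP libraries, without overlap.

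By correlation over the 12 libraries, the genes outside the set most like it, among 12006 with a mean of at least 2 CPM, were Vav1 (0.967), Igkv3-2 (0.961), H2-D1 (0.951), Cd3d (0.926), Mpeg1 (0.925), Thy1 (0.922), Ly6c2 (0.922) and Cybb (0.909). Several are leukocyte genes: Vav1 is a signalling protein of blood cells, Igkv3-2 an antibody light chain segment, Cd3d a T cell receptor subunit, Mpeg1 a macrophage perforin and Cybb the phagocyte oxidase subunit. Mpeg1 was at 17.8 ± 5.63 CPM in ADF Crtc2 muscle and 84.3 ± 29.1 CPM in ADF GFP muscle (SD, n = 3 each), and it fell with Crtc2 under ADF (-2.25 ± 0.40, adjusted p = 0.0113, lost without ADF GFP replicate 3 or ADF Crtc2 replicate 1 or 3). Igkv3-2 was at 0 in all ADF Crtc2 libraries and at 3.17 to 29.1 CPM in ADF GFP libraries. Vav1, the most alike, did not pass in that comparison (-2.92 ± 1.04, adjusted p = 0.261), although its groups did not overlap. All these genes were picked for their likeness to the members over the same 12 libraries. Their differences between ADF Crtc2 and ADF GFP muscle therefore follow in part from that choice and are not separate evidence.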

How the data were processed

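Bulk RNA of mouse tibialis anterior was sequenced in 12 libraries, 3 in each of 4 groups. The authors deposited whole-number counts per gene and library. Per the submitters' processing notes, HISAT2 2.0.5, SAMtools 1.7, featureCounts of Subread 1.6.1, DESeq2 1.18.1 and build GRCm38 (mm10) were used. Their roles, the annotation and the strand setting are not given in the sources used here. TRIzol and columns served for extraction per the labels, which name 2 stranded library kits without saying which library each served. Of the deposited counts from 2 to 21, 68.9 to 74.7% were even, so a count may not stand for 1 fragment, and an alternative halved the counts.

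From the counts, edgeR 4.0.16 in R 4.3.3 (limma 3.58.1) gave TMM-scaled CPM, kept 16007 of 22607 genes with its default expression filter, and fitted a robust quasi-likelihood model with a mean per group over all 12 libraries. The 7 contrasts were adjusted by Benjamini-Hochberg over all genes tested, with a threshold of 0.05. Standard errors are the log2 fold change over the root of the F statistic. Log2 CPM used a prior count of 2. A gene's exon length came from GENCODE release 21 of mouse, in which 99.9% of the IDs were found. A permutation test of 3 against 3 libraries cannot go below p = 0.1, so none was used. Libraries of a group differed from each other beyond counting noise, so none was counted as a repeat. Total counts ran from 24232450 to 34610417, and floors and counts cover counting error only. The labels do not say whether muscles with both vectors came from the same animals.

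Alternatives were other scalings, DESeq2 1.42.0, other filters, only the groups compared, halved counts, a replicate block and leaving out each library. The members and the gene lists were chosen with earlier results of these data known. Genes named were all members, from each list up to 4 genes with the smallest adjusted p in a comparison and more where they passed, and the 8 genes most alike to the members. Ctsb, Ctsd, Ctsl, Rfx5, Ifngr2 and Jak2 under ADF, Cd163, Ighm, Ifng, H2-DMb2, H2-Oa, H2-Ob and the B cell genes at 0 were named after their values were seen. The result of 1 listed gene is not reported here. The code was tested on simulated data.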

Additional observations from a re-analysis of the deposited data

How the results depend on the processing

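Of 1089 values of a member under an alternative, 995 kept their direction and side of the threshold, 17 lost a call, 51 gained one and 26 changed sign, with 0 changes of sign for Crtc2 against GFP under ADF or over both diets. The causes were not tested. Members called, for Crtc2 against GFP under ADF, were 2, and 5 with DESeq2, with no filter and with only the groups compared, and 0 to 5 without 1 library. Over both diets they were 1, and 2 with DESeq2-type size factors, with library totals, with a mean of at least 10 CPM and with halved counts, 5 with DESeq2, 6 with no filter, and 0 to 5 without 1 library. In fed muscle they were 0, and 1 with no filter. For ADF Crtc2 against fed Crtc2 they were 0, and 1 with library totals, 3 with no filter, and 0 to 1 without 1 library. For ADF GFP against fed GFP they were 0, and 1 with DESeq2 and with halved counts, 3 with no filter, and 0 to 1 without 1 library. For the interaction they were 0, and 5 with no filter. Without 1 library each, values that changed sign for ADF Crtc2 against fed Crtc2 ran from -0.68 to 0.51 (Cd74), -0.11 to 1.08 (H2-DMa) and -1.28 to 0.50 (H2-DMb1). For ADF GFP against fed GFP they ran from -1.12 to 0.090 (H2-DMb1), and for Crtc2 against GFP in fed muscle from -0.66 to 0.021 (Ctss). For diet over both vectors they ran from -0.33 to 0.23 (H2-Aa), -0.26 to 0.23 (H2-Ab1) and -0.31 to 0.22 (H2-Eb1). For the interaction they ran from -0.69 to 0.51 (H2-DMa), -0.95 to 1.13 (H2-DMb1) and -2.31 to 0.43 (Ciita). Same-numbered libraries of different groups correlated at -0.04 to 0.13 over 18 pairs, 1 of them over 0.1. Of 12 libraries, 8 correlated best with their own number, so whether the numbers pair the libraries is not settled. With the replicate block, the interaction was 0.079 for H2-DMa and 0.21 for H2-DMb1. Members called with that block stayed at 2 under ADF, 1 over both diets and 0 in the other 5 contrasts. Scaling by library totals moved the median of all genes by -0.29 for ADF Crtc2 against fed Crtc2 and by -0.20 for Crtc2 against GFP under ADF, where members lay far below it. All genes called under ADF were 116, and 556 with DESeq2, 385 with no filter and 300 with only the groups compared. Over both diets they were 79, and 364 with DESeq2 and 344 with no filter. They were 86 there with DESeq2-type size factors and 110 with library totals. With a mean of at least 10 CPM they were 91, and with halved counts 95. For ADF Crtc2 against fed Crtc2 they were 1758, and 1745 with library totals and 2083 with no filter. For ADF GFP against fed GFP they were 1140, and 1635 with DESeq2, 1207 with halved counts and 1468 with no filter. In fed muscle they were 0, and 64 with DESeq2, 58 with no filter and 7 with only the groups compared. For the interaction they were 0, and 111 with DESeq2 and 67 with no filter. Depth limits Ciita most, at 5 and 6 counts in 2 ADF Crtc2 libraries.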
